A study of Mus musculus with 4 samples.

Results

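Aminoacyl-tRNA synthetases were followed in chromatin-associated RNA of mouse embryonic stem cells (mESCs) before and after ZBTB21 degradation. The members were the protein-coding genes whose symbols in the GENCODE M21 annotation of mm10 follow the synthetase naming pattern (an amino acid letter and "ars", or Eprs, with the usual endings). This gave 38 of the 36918 genes in the deposited table, 21 for cytosolic and 17 for mitochondrial enzymes. Mitochondrial members were taken by the ending 2. Tarsl2 was kept with the cytosolic set, because its ending marks a second threonyl-tRNA synthetase-like gene of the cytosol. The assay was ChAR-seq, the sequencing of RNA recovered from the chromatin pellet, which enriches nascent transcripts. All cells carried a mAID-GFP degron tag at the C-terminus of endogenous ZBTB21 on both alleles, together with OsTIR1 at the Rosa26 locus, and were grown with CHIR99021, PD0325901 and mLIF. The degron group received doxycycline at 1 μg/ml for 24 h and then indole acetic acid (IAA, an auxin that triggers loss of the tagged protein) at 500 μM for 6 h, and the untreated group is labelled only as such. Whether the untreated cells had doxycycline is not stated, so loss of ZBTB21 cannot be told apart from IAA and possibly doxycycline itself. The cells came from selected clones of an OsTIR1 line, and the number of clones behind these libraries is not stated.

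An aminoacyl-tRNA synthetase joins an amino acid to the tRNAs that carry the matching anticodon, which is the step at which the genetic code is read. Mammalian cells keep one set of enzymes for cytosolic translation and a largely separate, nuclear-encoded set that is imported to charge the tRNAs of the mitochondrial genome. Glycyl- and lysyl-tRNA synthetase serve both compartments from a single gene each, and mitochondria have no glutaminyl enzyme and make that aminoacyl-tRNA by amidation instead. Many cytosolic synthetase genes are known in mammals as targets of ATF4, the transcription factor of the integrated stress response, which answers to amino acid shortage and other stresses.

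Each group had 2 libraries, with total counts from 4262382 to 6479842, and whether the libraries came from separate cultures is not stated, so the p-values below measure only a spread that may be technical. All values are CPM, counts scaled to a common library size with TMM factors, a scaling that sets the typical gene near no change (median log2FC of all tested genes -0.00075), so every change is relative to that gene. Differences were tested with edgeR's quasi-likelihood test over 14361 genes, and a gene was called at a Benjamini-Hochberg adjusted p under 0.05. Zbtb21 had 2 and 0 counts in the untreated and 0 and 0 in the degron libraries, and 99.88% of it lies under another gene on the same strand, so its RNA is no check of the labels. Of the mESC markers Pou5f1 was at 153 and 165 CPM in the untreated and 205 and 219 in the degron libraries. In this list 6 of 7 tested markers were higher in the degron group, against 20.3% of all tested genes. Zfp42 was at -0.10 and not called. With the trend of each library on gene length removed, Zfp42 was called lower (-0.23, edgeR adjusted p = 0.000545). Dppa5a had at most 1 count in any library. Sox2 had no count but lies wholly under another gene on its strand (100% covered), so nothing can be read from it. Fibroblast markers summed to between 5.96 and 8.28 CPM in the untreated and between 4.07 and 5.19 in the degron libraries. Most of this was Thy1, at 7.01 and 5.00 CPM in the untreated and 4.27 and 3.46 in the degron libraries. Thy1 was not called (log2FC -0.63 ± 0.30, edgeR adjusted p = 0.0957). Col1a1 and Col3a1 were under 1 CPM throughout. Endoderm markers summed to between 21.9 and 27.6 CPM in the untreated and between 16.1 and 19.1 CPM in the degron libraries, and neural markers to between 2.86 and 4.46 and between 1.53 and 2.24 CPM. The neural sum is Pax6 alone, because Sox1 had no count and, like Sox2, lies wholly under another gene on its strand. Among the tested markers of other cell types Gata6 (endoderm, log2FC -1.23 ± 0.48, edgeR adjusted p = 0.0385) and Pax6 (neural, -1.0 ± 0.41, 0.0448) fell and Gata3 (trophoblast, 0.39 ± 0.16, 0.0451) rose. Gata6 had only 6 to 13 counts per library and Pax6 10 to 21. With the length trend removed Gata6 (edgeR adjusted p = 0.0605) and Pax6 (0.0623) were not called, and Gata3 was (0.0346). Thy1 was then called lower (-0.84, edgeR adjusted p = 0.0301). The part of these markers in the synthetase results was not tested. In RNA from bulk cells, a lower share of one cell type and less RNA per cell cannot be told apart.

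Cytosolic synthetase genes mostly rose upon ZBTB21 degradation, by a modest amount each. Of the 21 members, all of them tested, 13 rose and 2 fell, while in the same test 20.3% of all genes rose and 19.8% fell. Their median log2FC was 0.22, a 1.16-fold higher level, and the single members ranged from -0.54 to 0.73. In 15 of the 21 both degron libraries lay above both untreated libraries and in 3 below, against 34.4% and 34.6% of all tested genes. Together these genes took 0.254% (95% Wilson interval 0.249 to 0.258) and 0.253% (0.249 to 0.258) of all counts in the untreated libraries and 0.31% (0.305 to 0.314) and 0.317% (0.312 to 0.322) in the degron libraries, and the intervals cover counting error only. With the DESeq2 Wald test 8 cytosolic members rose and 1 fell, while 10.7% of all genes rose and 10.1% fell. Among protein-coding genes alone 22.1% rose and 21% fell in the edgeR fit. Low-count genes are called less readily. With only genes of at least 50 counts on average, 2752 of 10271 rose and 2749 fell. In that fit 13 of the 20 cytosolic members tested rose and 3 fell. The plot of CPM by library shows the values gene by gene.

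**Figure D1:**
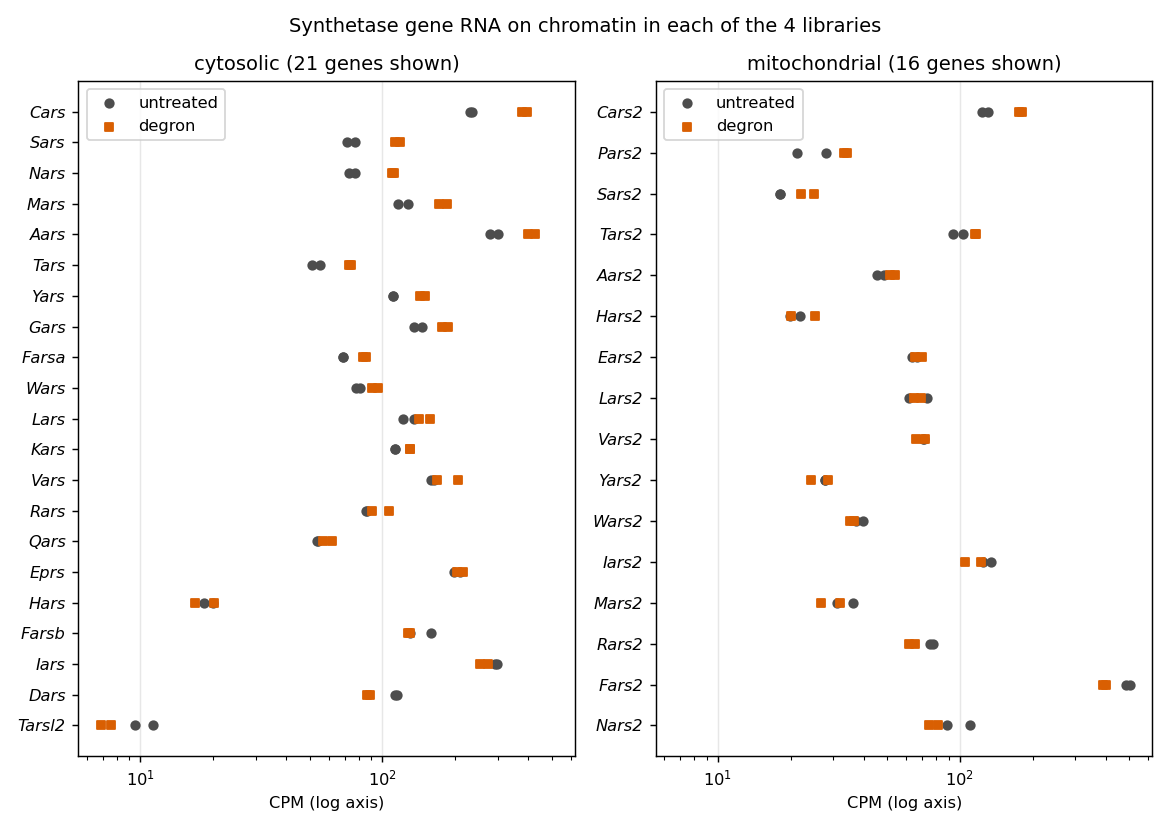
CPM of each synthetase gene in each library on a log axis, cytosolic members on the left and mitochondrial members on the right, ordered by log2FC; circles are the 2 untreated and squares the 2 degron libraries. The degron squares lie to the right of the untreated circles for 15 of 21 cytosolic and 5 of the 16 mitochondrial genes drawn.

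The cysteinyl enzyme led the set. Cars (ENSMUSG00000010755), at chr7:143557230-143600090 on the minus strand, was at 234 and 229 CPM in the untreated and 377 and 394 CPM in the degron libraries. This was a 1.66-fold rise (log2FC 0.73 ± 0.054 SE, edgeR adjusted p = 1.24e-14), and its log2FC ranked 431 from the top among the 14361 tested genes. Sars, whose enzyme charges serine tRNAs and also the selenocysteine tRNA with serine, went from 71.4 and 77.2 CPM to 113 and 118 CPM (log2FC 0.64 ± 0.08, edgeR adjusted p = 1.68e-08). Nars, the asparaginyl enzyme, went from 72.4 and 77.0 CPM to 110 and 112 CPM (0.57 ± 0.08, edgeR adjusted p = 1.74e-07). Mars, which encodes the methionyl enzyme that charges both the initiator and the elongator tRNA of the cytosol, went from 116 and 127 CPM to 172 and 184 CPM (0.55 ± 0.069, edgeR adjusted p = 1.74e-08). In each of these genes the gap between the groups was wider than the gap within either group. Aars (ENSMUSG00000031960), the alanyl enzyme at chr8:111033144-111057664 on the plus strand, had the highest level per length of all 38 genes and rose from 299 and 278 CPM to 401 and 427 CPM (0.52 ± 0.053, edgeR adjusted p = 1.49e-10). These calls held under all 14 alternative settings.

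A further 3 genes rose by less and were also called under every alternative. The threonyl enzyme Tars went from 51.2 and 55.3 CPM to 72.5 and 74.0 CPM (log2FC 0.46 ± 0.092). The tyrosyl enzyme Yars was at 111 CPM in both untreated libraries and at 150 and 143 CPM in the degron libraries (0.40 ± 0.071). Gars, which encodes glycyl-tRNA synthetase for cytosol and mitochondria alike, went from 146 and 135 CPM to 177 and 187 CPM (0.37 ± 0.066). The edgeR adjusted p of these 3 lay between 1.36e-05 and 8.23e-05.

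The remaining risers changed by at most 0.29 on the log2 scale, and only Farsa among them was called whichever library was left out. Farsa, the catalytic alpha subunit of the phenylalanyl enzyme, went from 68.4 and 68.9 CPM to 85.1 and 83.0 CPM (0.29 ± 0.085, edgeR adjusted p = 0.00465), but with the trend of each library on gene length removed (length adjustment) it was at 0.17 and not called (edgeR adjusted p = 0.125). Its partner Farsb, the beta subunit, was at 130 and 158 CPM in the untreated and 128 and 130 CPM in the degron libraries, with overlapping groups (-0.15 ± 0.075, edgeR adjusted p = 0.0977). Farsb was called lower without untreated replicate 1 (-0.29, edgeR adjusted p = 0.00423). The subunits of this heterotetrameric enzyme thus had log2FC of opposite sign in the main fit. With length adjustment Farsb, a gene of 70923 bp, was at 0.046 (edgeR adjusted p = 0.688), so both subunits were then above 0 and not called. The difference between them was not tested. Wars, the tryptophanyl enzyme, went from 77.7 and 80.5 CPM to 95.5 and 90.1 CPM (0.23 ± 0.082). It did not pass when untreated replicate 1 (0.22, edgeR adjusted p = 0.0975) or degron replicate 1 (0.19, 0.168) was left out. The leucyl enzyme Lars went from 122 and 135 CPM to 142 and 157 CPM (0.22 ± 0.072), and did not pass without untreated replicate 1 (0.15, edgeR adjusted p = 0.17) or degron replicate 2 (0.16, 0.164). Length adjustment moved Lars, a gene of 59897 bp, up to 0.38. Kars, the lysyl enzyme of both compartments, was at 113 CPM in both untreated and 130 CPM in both degron libraries (0.20 ± 0.072). Its call was lost when any one library was left out (edgeR adjusted p from 0.0631 to 0.0848) although the log2FC stayed between 0.20 and 0.21. Vars, the valyl enzyme, was at 164 and 159 CPM in the untreated and at 168 and 205 CPM in the degron libraries (0.20 ± 0.071). Degron replicate 2 carried the Vars difference, which was 0.06 without it (edgeR adjusted p = 0.612) and 0.35 without degron replicate 1, and the call was also lost without untreated replicate 2 (0.18, 0.0668).

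Aspartyl- and isoleucyl-tRNA synthetase genes moved the other way. Dars (ENSMUSG00000026356), at chr1:128363707-128417368 on the minus strand, fell from 113 and 115 CPM to 89.1 and 86.3 CPM (log2FC -0.38 ± 0.077, edgeR adjusted p = 0.000107), and this call held under all 14 alternatives, although its length-adjusted log2FC was smaller (-0.23). Iars went from 297 and 291 CPM to 272 and 253 CPM (-0.16 ± 0.055, edgeR adjusted p = 0.0199). Its call was lost without untreated replicate 1 (-0.13, edgeR adjusted p = 0.125), untreated replicate 2 (-0.16, 0.0502) or degron replicate 2 (-0.10, 0.237), and its length-adjusted log2FC was -0.019. Tarsl2 had the lowest level of the family, with 37 to 53 counts per library, and was at 11.3 and 9.53 CPM in the untreated and 6.87 and 7.53 CPM in the degron libraries. The groups did not overlap, but at this depth the difference fell just short of the threshold (-0.54 ± 0.23, edgeR adjusted p = 0.0526).

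The other cytosolic members did not pass. Eprs, which joins the glutamyl and prolyl activities in a single protein, was at 210 and 198 CPM in the untreated and at 203 and 215 CPM in the degron libraries (log2FC 0.033 ± 0.061). With length adjustment this 65317 bp gene was at 0.22 and called higher (edgeR adjusted p = 0.0055). The arginyl enzyme Rars was at 86.0 and 85.3 CPM in the untreated and at 90.8 and 106 CPM in the degron libraries (0.19 ± 0.083, edgeR adjusted p = 0.0641), and without degron replicate 1 it was called higher (0.31, edgeR adjusted p = 0.0113). Qars (0.15 ± 0.096), the glutaminyl enzyme, and Hars (-0.072 ± 0.16), the histidyl enzyme with 16.8 to 20.1 CPM, did not pass at this depth.

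**Figure D2:**
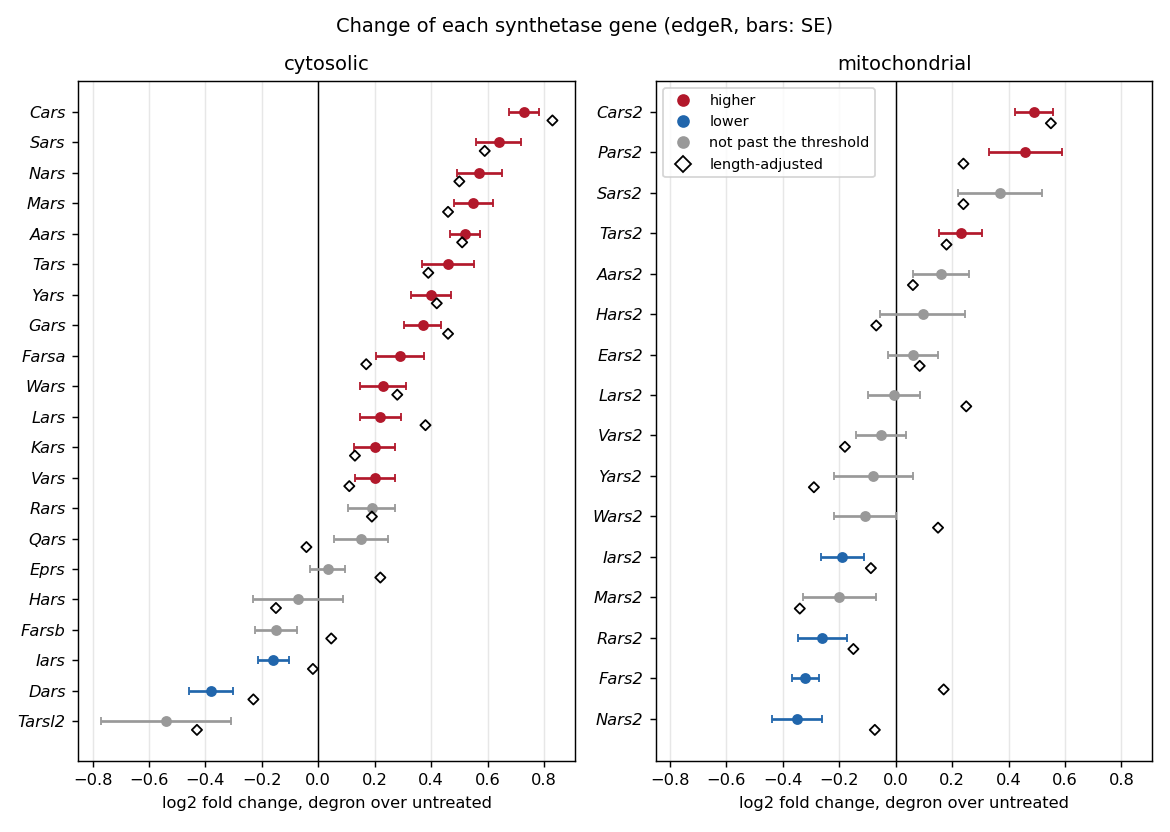
Log2FC of each synthetase gene, degron over untreated (x axis), with its SE as a bar, from edgeR; red marks a higher call, blue a lower call and grey no call at an adjusted p under 0.05, and open diamonds give the log2FC after length adjustment. The cytosolic panel has 13 red and 2 blue points and the mitochondrial panel 3 red and 4 blue points, and the diamond of Fars2 lies on the other side of 0 from its point.

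Promoter sequence was examined because many of these genes are known ATF4 targets. ATF4 pairs with C/EBP factors on a composite element, and the letters TGATGNAA (N being any base) were searched on both strands from 250 bases before to 50 bases after the RefSeq start sites of GRCm38.p6. A window was found for 28 of the 38 members. TGATGNAA was present in 5 of 14 cytosolic members (35.7%), in 0 of 14 mitochondrial members and in 3.97% of all 32851 windows. With the stricter TGATGCAA, part of the same match, these were 4 of 14, 0 of 14 and 0.895%. The 5 windows are printed here because they hold the 6 matches, shown in capitals and appearing as the reverse complement where the match is on the opposite strand.
Aars, chr8:111033592-111033891, plus strand: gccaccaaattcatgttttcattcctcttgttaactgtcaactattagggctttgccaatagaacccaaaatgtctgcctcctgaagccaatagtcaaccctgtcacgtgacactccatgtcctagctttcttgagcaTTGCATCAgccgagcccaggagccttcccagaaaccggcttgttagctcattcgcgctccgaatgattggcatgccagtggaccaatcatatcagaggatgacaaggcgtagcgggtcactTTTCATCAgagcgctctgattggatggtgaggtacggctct
Gars, chr6:55037751-55038050, plus strand: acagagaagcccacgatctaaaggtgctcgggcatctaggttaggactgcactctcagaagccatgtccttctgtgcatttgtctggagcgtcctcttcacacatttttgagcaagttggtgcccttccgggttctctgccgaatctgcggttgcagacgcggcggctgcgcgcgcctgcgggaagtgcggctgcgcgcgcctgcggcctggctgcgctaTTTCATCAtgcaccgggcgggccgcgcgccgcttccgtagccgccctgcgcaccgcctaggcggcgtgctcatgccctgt
Iars, chr13:49681880-49682179, plus strand: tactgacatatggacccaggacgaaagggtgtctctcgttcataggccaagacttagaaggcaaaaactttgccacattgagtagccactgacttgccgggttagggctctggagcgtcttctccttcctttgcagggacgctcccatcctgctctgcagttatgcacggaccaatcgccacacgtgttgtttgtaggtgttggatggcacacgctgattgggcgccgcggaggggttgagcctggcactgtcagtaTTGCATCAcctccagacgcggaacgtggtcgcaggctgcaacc
Tars, chr15:11399609-11399908, minus strand: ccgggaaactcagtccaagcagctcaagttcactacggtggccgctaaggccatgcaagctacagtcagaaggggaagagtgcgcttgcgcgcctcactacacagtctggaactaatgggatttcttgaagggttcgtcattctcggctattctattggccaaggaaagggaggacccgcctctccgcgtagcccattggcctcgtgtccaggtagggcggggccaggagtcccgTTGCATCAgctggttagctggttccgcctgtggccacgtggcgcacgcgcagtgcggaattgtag
Yars, chr4:129189653-129189952, plus strand: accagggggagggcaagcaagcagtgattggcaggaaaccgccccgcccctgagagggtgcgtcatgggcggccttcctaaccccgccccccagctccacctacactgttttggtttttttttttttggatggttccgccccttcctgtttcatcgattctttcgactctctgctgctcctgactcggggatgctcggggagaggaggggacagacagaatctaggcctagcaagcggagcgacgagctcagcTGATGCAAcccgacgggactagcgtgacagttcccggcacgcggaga
The match began 112 bases before and 9 bases after the start base in Aars, 30 before it in Gars, 15 before it in Tars, 7 after it in Iars and 3 after it in Yars. Of these genes Aars, Gars, Tars and Yars rose and Iars fell, as given above, while 20.3% of all tested genes rose and 19.8% fell. The windows of Sars and Mars, which rose more, hold no such letters, and no window was available here for Cars or Nars. Among the other cytosolic members whose windows hold no match, Farsa and Kars rose, Dars fell, and Eprs, Farsb, Qars and Tarsl2 were not called. A match of letters is a description of the window and no evidence of binding.

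The cytosolic enzymes were next grouped by complex and by class, groupings chosen after the values had been seen. In mammals Dars, Eprs, Iars, Kars, Lars, Mars, Qars and Rars encode the 8 enzymes of the multisynthetase complex, a particle that also holds 3 scaffold proteins. Of these 8 genes 3 rose (Kars, Lars and Mars) and 2 fell (Dars and Iars), with a median log2FC of 0.17. Of the 13 cytosolic genes outside the complex 10 rose and none fell, with a median of 0.37, and the shares of all tested genes were 20.3% and 19.8%. With length adjustment the calls were 3 higher and 1 lower in the complex and 8 higher and 0 lower outside it, beside 18.8% and 9.71% of all genes. By catalytic fold, 6 of 9 class I genes rose and 1 fell, and 7 of 11 class II genes rose and 1 fell, Eprs being left out because it holds a domain of each class. No difference between these groupings was tested.

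Mitochondrial synthetase genes moved in both directions. Of the 17 members, all tested, 3 rose and 4 fell, shares close to the 20.3% and 19.8% of all tested genes, and the median log2FC was -0.052. In 5 of the 17 both degron libraries lay above both untreated libraries and in 6 below, against 34.4% and 34.6% of all tested genes. These genes took 0.143% (95% Wilson interval 0.139 to 0.146) and 0.149% (0.145 to 0.152) of counts in the untreated libraries and 0.14% (0.137 to 0.143) and 0.142% (0.139 to 0.145) in the degron libraries. The intervals of untreated replicate 1 overlap those of both degron libraries, whereas untreated replicate 2 lies above degron replicate 1. Per kilobase of counted gene body the mitochondrial genes had a median of 2.25 CPM in untreated cells, from 0.394 for Wars2 to 6.27 for Pars2. The cytosolic genes had a median of 3.71 CPM per kilobase, from 0.222 for Tarsl2 to 11.9 for Aars.

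Cars2, which charges mitochondrial cysteine tRNA, rose most in this set, as Cars did among the cytosolic genes. It lies at chr8:11513977-11550783 on the minus strand and went from 123 and 131 CPM to 181 and 175 CPM (log2FC 0.49 ± 0.067, edgeR adjusted p = 1.19e-07), and its call held under all 14 alternatives. Pars2, the prolyl enzyme, was at 21.2 and 27.9 CPM in the untreated and 34.0 and 33.2 CPM in the degron libraries (0.46 ± 0.13, edgeR adjusted p = 0.00519). Pars2 lost its call without untreated replicate 1 (0.28, edgeR adjusted p = 0.194), was at 0.67 without untreated replicate 2, and was at 0.24 after length adjustment (edgeR adjusted p = 0.186). Tars2, the threonyl enzyme, went from 93.9 and 103 CPM to 115 and 116 CPM (0.23 ± 0.076, edgeR adjusted p = 0.0128). Its call was lost without untreated replicate 1 (0.17, edgeR adjusted p = 0.154) or degron replicate 1 (0.24, 0.0512) and after length adjustment (0.18, 0.0677). Sars2, the seryl enzyme, was at 18.1 CPM in both untreated and at 22 and 25 CPM in the degron libraries, just short of the threshold (0.37 ± 0.15, edgeR adjusted p = 0.0514), and was called without degron replicate 1 (0.47, edgeR adjusted p = 0.0352).

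None of the 4 lower calls among the mitochondrial genes held after length adjustment. Fars2, the single-chain phenylalanyl enzyme of mitochondria, spans 608869 bp at chr13:36117412-36726280 and is by far the longest member. It fell from 484 and 504 CPM to 390 and 403 CPM (log2FC -0.32 ± 0.048, edgeR adjusted p = 9.6e-07), but with length adjustment it was higher instead (0.17, edgeR adjusted p = 0.00844). Nars2, the asparaginyl enzyme on 113254 bp, was at 88.1 and 110 CPM in the untreated and 74.3 and 81.0 CPM in the degron libraries (-0.35 ± 0.088, edgeR adjusted p = 0.00127). Nars2 lost its call without untreated replicate 2 (-0.18, edgeR adjusted p = 0.181), was at -0.50 without untreated replicate 1 and was at -0.074 after length adjustment. Rars2, the arginyl enzyme, went from 75.2 and 77.2 CPM to 65.3 and 61.6 CPM (-0.26 ± 0.088, edgeR adjusted p = 0.0162). Its call was lost without untreated replicate 2 (-0.23, edgeR adjusted p = 0.0961) or degron replicate 2 (-0.22, 0.123) and after length adjustment (-0.15, 0.2). Iars2, the isoleucyl enzyme, was at 125 and 134 CPM in the untreated and 105 and 122 CPM in the degron libraries (-0.19 ± 0.076, edgeR adjusted p = 0.0397). It did not pass without untreated replicate 2 (-0.13, edgeR adjusted p = 0.269) or degron replicate 1 (-0.075, 0.588) or after length adjustment (-0.088, 0.416), and was at -0.29 without degron replicate 2. The degron libraries lay below the untreated ones in all 4 genes.

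The other mitochondrial genes did not pass. Aars2, the alanyl enzyme, was at 48.6 and 45.5 CPM in the untreated and at 53.9 and 51.3 CPM in the degron libraries (log2FC 0.16 ± 0.10). Its groups lay close together without overlap. Mars2, the methionyl enzyme, was at 31.0 and 36.0 CPM in the untreated and 26.6 and 32.1 CPM in the degron libraries (-0.20 ± 0.13), with overlapping groups. Lars2, the leucyl enzyme on 95740 bp, was at 72.8 and 61.5 CPM in the untreated and 69.3 and 64.5 CPM in the degron libraries (-0.006 ± 0.093). After length adjustment Mars2 (-0.34, edgeR adjusted p = 0.043) passed as lower and Lars2 (0.25, 0.0381) as higher. Vars2 was at 70.3 and 71.2 CPM in the untreated and at 65.6 and 71.4 CPM in the degron libraries, Wars2 was at 39.9 and 37.2 against 35.2 and 36.6 CPM, and Yars2 was at 27.6 CPM in both untreated against 24.3 and 28.5 CPM in the degron libraries. The log2FC of these valyl, tryptophanyl and tyrosyl enzyme genes lay between -0.11 and -0.052, and only the groups of Wars2 did not overlap. Hars2, the histidyl enzyme (0.095 ± 0.15), and Ears2, the glutamyl enzyme (0.061 ± 0.09), had overlapping groups.

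Cytosolic and mitochondrial enzymes of the same amino acid were then set side by side. In 14 of 19 pairs the cytosolic gene had the larger log2FC, with a median difference of 0.24 on the log2 scale. The widest gap in the main fit was for asparagine, where Nars rose (0.57) and Nars2 fell (-0.35). With length adjustment these were at 0.50 and -0.074. Methionine (Mars 0.46, Mars2 -0.34) and tyrosine (Yars 0.42, Yars2 -0.29) then had wider gaps. For phenylalanine Farsa rose (0.29) and Fars2 fell (-0.32), the latter being the gene whose sign turned with length adjustment. For methionine, tyrosine, alanine, tryptophan, valine, leucine and serine the cytosolic gene was called higher and the mitochondrial one was not called. Cysteine and threonine were the amino acids for which Cars and Cars2, or Tars and Tars2, were called higher together. Isoleucine was the one for which Iars and Iars2 were called lower together. In proline the order was reversed, with Pars2 at 0.46 and Eprs at 0.033, but with length adjustment they were nearly equal (0.24 and 0.22). The widest reversed gap was between Tars2 (0.23) and the low-count Tarsl2 (-0.54, not called), at 0.18 and -0.43 with length adjustment. Exact permutation of 2 against 2 libraries cannot go below a two-sided p of 0.333, so the pair differences were left as a description. The pairs share their libraries and differ in gene length.

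**Figure D3:**
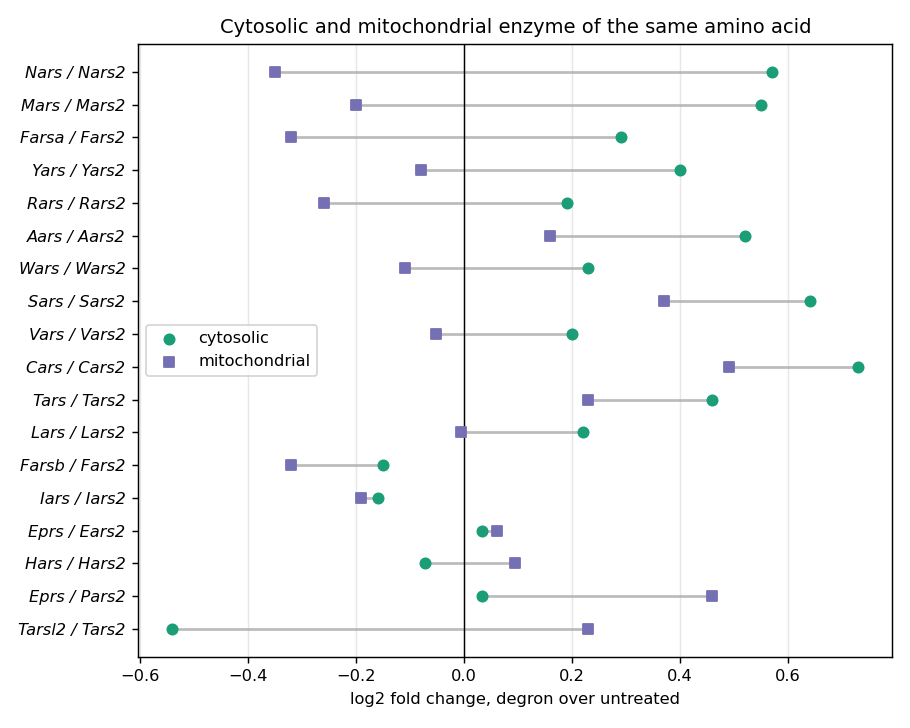
Log2FC, degron over untreated (x axis), of the cytosolic gene (circles) and the mitochondrial gene (squares) of the same amino acid in the 18 pairs drawn, ordered by their difference. The circle lies to the right of the square in 14 pairs, and Nars with Nars2 shows the widest gap in that direction.

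Gene length went with the changes across the whole table, so the members were compared with genes of like length. In the range spanned by the cytosolic members, from 8236 to 70923 bp, 8427 genes were tested, of which 23.2% rose and 13.5% fell with a median log2FC of 0.033, against 13 and 2 of the 21 members and their median of 0.22. With the length trend of each library removed, 11 cytosolic members rose and 1 fell at the same median of 0.22, and 18.8% of all genes rose and 9.71% fell. Farsa, Kars and Vars then lost their higher calls, Iars its lower call, and Eprs gained a higher one. Among the mitochondrial members 3 rose (Cars2, Fars2 and Lars2) and 1 fell (Mars2) in that fit, with a median of 0.061. Across the 21 cytosolic genes Spearman's rho of length and log2FC was -0.36, and across the 17 mitochondrial genes it was -0.551. These are descriptions over genes that share the 4 libraries. The plot against gene length shows Cars at 42861 bp and Cars2 at 36807 bp well above the median of genes of their length, and Fars2 beyond the end of the curve.

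**Figure D4:**
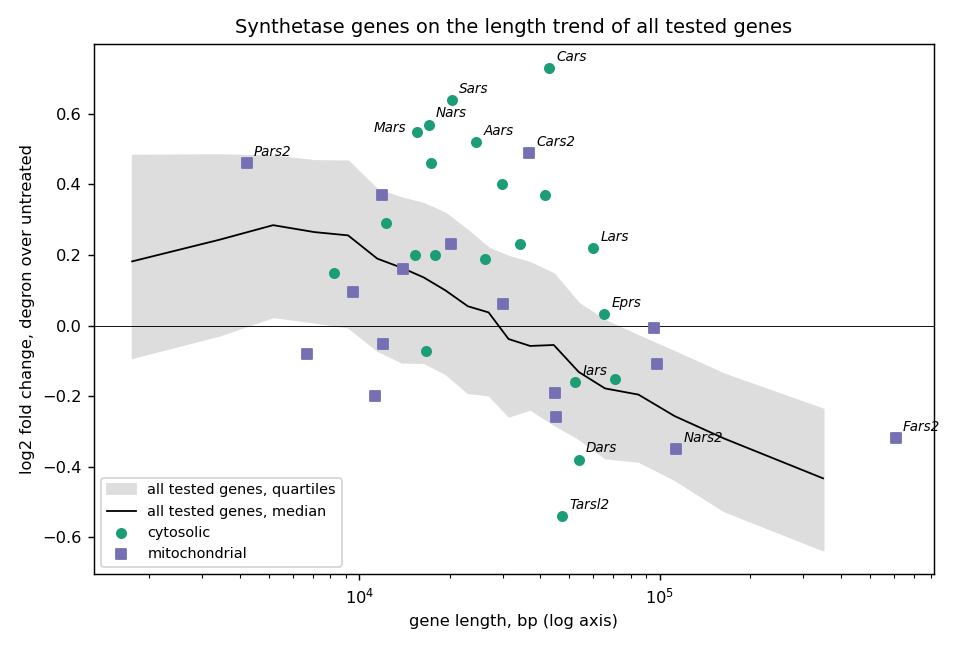
Log2FC, degron over untreated (y axis), against gene length in bp (log x axis) for cytosolic (circles) and mitochondrial (squares) synthetase genes; the line is the median and the band the quartiles of all tested genes in 20 length bins. The median of all genes runs from 0.182 in the shortest to -0.433 in the longest bin, and Cars, Sars, Nars, Mars and Aars lie above the band.

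Genes around the charging step were examined last, from lists chosen with earlier results of these data known, and their counts stand beside the 20.3% of all tested genes that rose and the 19.8% that fell (18.8% and 9.71% with length adjustment). Of the 3 scaffold genes of the multisynthetase complex Aimp2 (log2FC 0.37 ± 0.12) and Eef1e1 (0.35 ± 0.10) rose, and Aimp1 was at -0.15. None of these was called after length adjustment. Of 10 tested charging partners 1 rose and 2 fell, near the shares of all genes. The riser was Xpot (0.27 ± 0.063), the exporter that carries tRNAs out of the nucleus. The fallers were Gatb (-0.42 ± 0.084, length-adjusted -0.19 with no call), a subunit of the amidotransferase that makes mitochondrial glutaminyl-tRNA, and Dtd1 (-0.61 ± 0.091, length-adjusted -0.27), which removes D-amino acids from tRNA. Of 7 genes for cytosolic elongation factors and their modifiers 5 rose and none fell, with Eef1b2 at 0.57 ± 0.097 and Eef1a1, the factor that brings charged tRNA to the ribosome, going from 154 and 152 CPM to 193 and 225 CPM (0.44 ± 0.068). With length adjustment 3 rose, and Eef2, the translocation factor, was lower (-0.041 and not called before, -0.26 after). Of 15 mitochondrial translation factors and tRNA modifiers 4 rose and none fell, led by the initiation factor Mtif3 (0.66 ± 0.12), and 2 rose with length adjustment, also near the shares of all genes.

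The list of integrated stress response genes, none of which is a synthetase, had 18 of 27 tested members higher and 2 lower, with a median log2FC of 0.50, against 20.3% and 19.8% of all tested genes. With length adjustment these were 17 and 2, against 18.8% and 9.71%. The lower genes were Ddit4 (-0.76 ± 0.18, edgeR adjusted p = 0.000741), a stress-induced inhibitor of mTORC1 signalling, and Stc2 (-0.76 ± 0.19, 0.00127), a secreted glycoprotein. Slc7a1, the transporter of cationic amino acids, went from 370 and 334 CPM to 513 and 505 CPM (0.53 ± 0.051). Atf4, named for its role and not by a rule, went from 76.2 and 67.4 CPM to 100 and 104 CPM (0.50 ± 0.083). Ddit3, which encodes CHOP, lies tail to tail with Mars with an overlap of 68 bp and shares 53% of its length with another gene on its strand, so its counts are uncertain. It was at 7.22 and 10.0 CPM in the untreated and 10.7 and 11.2 CPM in the degron libraries (0.35 ± 0.22, edgeR adjusted p = 0.208), against 0.55 for Mars. That synthetase and stress response genes moved together is a description of these libraries, and a common source was not tested.

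**Figure D5:**
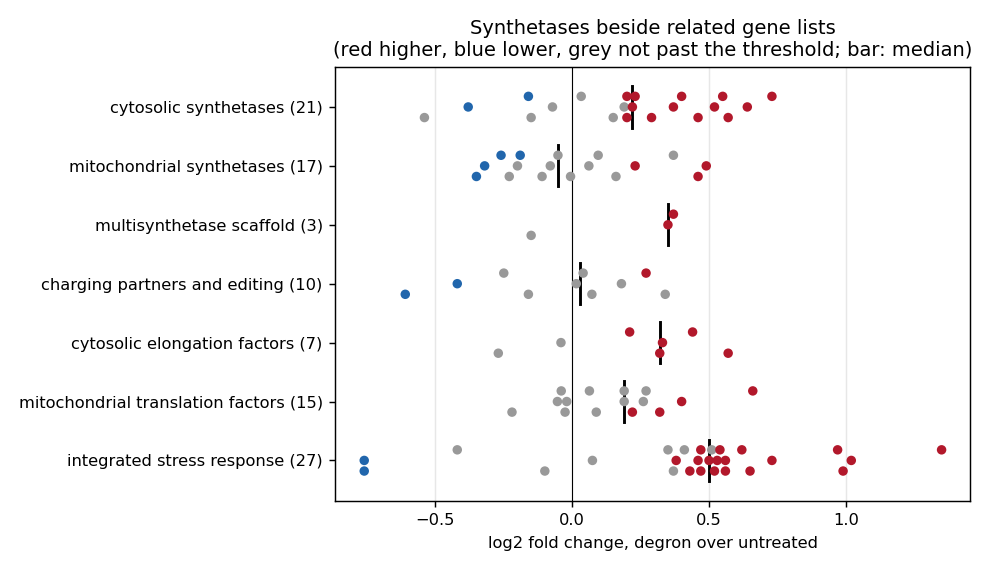
Log2FC, degron over untreated (x axis), of the tested members of each list (number in parentheses); each point is a gene, red higher, blue lower and grey not called, and the bar is the median. The cytosolic synthetases have a median of 0.22, the mitochondrial synthetases -0.052 and the integrated stress response genes 0.50.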

How the data were processed

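The deposited table holds raw counts per gene for 4 ChAR-seq libraries. The authors trimmed reads with cutadapt 2.6, mapped them to mm10 and dm6 (with bowtie2 according to the methods and STAR 2.7.6a according to the submitters' processing notes), removed PCR duplicates and counted uniquely mapped reads with featureCounts 1.6.3, using exons and introns but not the first 300 bp of a gene. The strand setting and the annotation release used for ChAR-seq are not given in the sources used here. The study scaled by fly spike-in reads, not used here, so global shifts are invisible. From Pol II ChIP-seq and ChAR-seq the paper reports a global activation of transcription after loss of ZBTB21. A gene said here to fall is therefore lower relative to the typical gene, and may not be lower on the study's scale.

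Of 36918 gene IDs, 36770 matched GENCODE M21. Genes were kept with filterByExpr (minimum count 10, minimum total 15), scaled with TMM and tested in edgeR 4.0.16 (R 4.3.3) with robust quasi-likelihood fits and the group as the term, two-sided, Benjamini-Hochberg adjusted over 14361 genes. SE equals |log2FC| divided by the square root of F. Counts of same-group libraries varied more than Poisson sampling gives (chi-square over degrees of freedom 1.3 untreated and 1.39 degron), so no library was taken as a second deposit of another, and whether they are separate cultures is not stated. Alternatives used DESeq2 1.42.0 (size factors, Wald test), limma 3.58.1 (voom), total counts, other filters, a replicate block, each library left out, and length adjustment, in which a loess fit (span 0.3) against log10 gene length served as each library's offset. With 1 library left out, the lone library of its group is assumed to vary like the other group. Promoter windows came from RefSeq (GRCm38.p6), matched by symbol.

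Members, lists and alternatives were chosen with earlier results of these data known. Values in each library are given for called members and for the counterpart of the same amino acid, and up to 4 genes of each list by smallest adjusted p, of which a few are printed. Aimp1, Gatb, Dtd1, Eef2, Atf4, Ddit3, Ddit4, Stc2 and the markers were named for their role or after their values were seen. Results for 1 mitochondrial member are not reported singly here, and it stays in the counts and medians of its set.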

Additional observations from a re-analysis of the deposited data

How the results depend on the processing

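Calls of Aars, Cars, Gars, Mars, Nars, Sars, Tars, Yars, Cars2 and Dars were the same under the 14 alternatives. The fold changes that changed sign while called were those of Fars2 and Lars2 with length adjustment (0.17 and 0.25). With the DESeq2 Wald test 1540 genes rose and 1456 fell (10.7% and 10.1% of those tested), 8 cytosolic members rose and 1 fell, and 1 mitochondrial member rose and 2 fell. Farsa, Iars, Kars, Lars, Vars, Wars, Iars2, Pars2, Rars2 and Tars2 lost their calls there. With length adjustment 1394 genes fell, as did 1 cytosolic and 1 mitochondrial member, and the mitochondrial median was 0.061. With no filter 1 cytosolic and 2 mitochondrial members fell, while 2399 of the 23551 genes in that fit fell. The cytosolic median was then 0.25. Total counts gave a cytosolic median of 0.24, and genes at most 10% covered by others gave medians of 0.24 and 0.018. The latter is over 15 of the 17 mitochondrial members, without Fars2 and Vars2. Of Vars2 39.6% lies under genes on the opposite strand, so with an unknown strand setting its counts are uncertain. Leaving out each library gave 10 to 12 cytosolic members higher and 1 to 2 lower, 1 to 3 mitochondrial members higher and 1 to 4 lower, and medians of 0.20 to 0.30 and of -0.10 to 0.014. It gave 2304 to 2505 genes higher and 2083 to 2367 lower. Whether the replicate numbers pair the samples is not settled. Deviations of libraries with the same replicate number were hardly correlated (0.0296), which cannot exclude a pairing. A replicate block gave 3119 genes higher and 3055 lower, with Rars, Sars2 and Tarsl2 newly called and no member's call lost. The block with replicate numbers swapped in the degron group gave 2902 and 2802. Rars and Sars2 were also newly called with total counts, with no filter and among genes at most 10% covered by others. Sars2 and Tarsl2 were newly called among protein-coding genes only. Neither length adjustment nor the DESeq2 Wald test called Rars or Sars2. A share of protein-coding counts was 0.262% to 0.327% for cytosolic and 0.145% to 0.154% for mitochondrial members. A count of 0 allows up to 0.458 to 0.715 CPM, and for genes near 20 CPM such as Hars and Hars2 the depth limits what can be seen.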

Other observations

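Of the 38 members, 9 start within 1000 bp of a protein-coding gene on the opposite strand, Hars and Hars2 being each other's neighbour. Among the neighbours of these 9 only Orc3 was called by edgeR, while 20.3% of all tested genes rose and 19.8% fell. Yars rose (0.40), and S100pbp, which starts 33 bp away, was at 0.034 (edgeR adjusted p = 0.758). Fars2 fell (-0.32), and Lyrm4 beside it was at 0.036 (edgeR adjusted p = 0.816). Rars2 fell (-0.26) together with Orc3, a subunit of the origin recognition complex that starts 13 bp away (-0.42, edgeR adjusted p = 0.000257). Sars2 (0.37) and the mitochondrial ribosomal protein gene Mrps12 (0.33) had log2FC of like size and neither passed. Hars and Hars2, whose starts lie 197 bp apart on opposite strands, were at -0.072 and 0.095. Differences between neighbours were not tested.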
